A study of Canis lupus familiaris with 13 samples.

Results

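The genes described are RUNX2, SP7, ALPL, IBSP, SPP1, PHEX, SOX9, ACAN, and BMP2, a set of 9 bone and cartilage formation genes named by symbol among the 43427 symbols of the count table, and all 9 were present. They were followed in 13 RNA-seq libraries from 4 tumors of 3 companion dogs given intratumoral IMAX, a nanoparticle of a polyethyleneimine and lithocholic acid polymer (2E′) carrying paclitaxel and a cyclic dinucleotide. Dog RV had a soft tissue sarcoma with 4 libraries, from mid mass before dosing, from mid mass 2 days past dose 2, and from the injection site and an adjacent site 2 weeks past dose 3. Dog CL had a cranial and a caudal mammary tumor with 3 libraries each, from before dosing, 1 week past dose 2, and 1 month past it. The study diagnosed the cranial mass as a ductal carcinoma and the caudal mass as a complex carcinoma. Dog BM had 3 libraries of a left caudal mammary mass, from before dosing, 1 week past dose 2, and 3 weeks past it. Libraries taken before treatment (4 libraries), early (2 days or 1 week, 4 libraries), and late (2 weeks to 1 month, 5 libraries) formed the time groups, and the last tissues came from surgery that removed the tumors. In the study's histology, the BM mass was a solid carcinoma before treatment, was rich in collagen with foci of mineral at 1 week, and had a mineralized center resembling osteosarcoma within a carcinosarcoma at 3 weeks. No untreated tumor was among the libraries, so treatment, time, and the place sampled within a mass cannot be told apart.

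Bone forms when mesenchymal precursors take on the osteoblast program. RUNX2 is the transcription factor that starts this program and SP7 (osterix) acts after it, while BMP2 is a secreted ligand that can turn both on. ALPL, the tissue-nonspecific alkaline phosphatase, frees phosphate and removes the mineralization inhibitor pyrophosphate, PHEX is a membrane peptidase that acts on matrix proteins which hold back mineral, and IBSP (bone sialoprotein) and SPP1 (osteopontin) are acidic matrix proteins that bind mineral. Cartilage depends on SOX9, the chondrocyte transcription factor, and on ACAN (aggrecan), the large proteoglycan of its matrix. Canine mammary tumors are known for forming cartilage and bone in mixed types. SPP1 is also made by macrophages, and SOX9 also by epithelial cells, so neither names a cell type alone.

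Total counts per library ran from 11622444 to 29931125. The 3 libraries of dog BM held the largest totals and also carried another prefix in their library names, so the naming series and the dog cannot be told apart. The 2-day library of RV stood apart: 8 epidermis marker genes summed to 2116 CPM (counts scaled to library size by TMM factors) in it and to between 26.6 and 150 CPM in the other 12 libraries. The study diagnosed the RV biopsy of that time as granulomatous to pyogranulomatous dermatitis, with extensive necrosis, and found no definite tumor cells in its sections. Changes at 2 days in RV therefore may not be changes within the sarcoma. Each tumor had 1 library per time point apart from the late RV pair, so a change within a tumor had no replicate check. Values are CPM of each gene, and since transcript lengths were not used, levels were compared between libraries and never between genes. In a bulk biopsy, fewer cells of a type and less RNA per cell cannot be told apart.

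RUNX2 was found in all 13 libraries and had no time group apart from the others. In RV it was 235 CPM before treatment, 81.5 CPM at 2 days, and 293 and 172 CPM at the injection and adjacent sites at 2 weeks. In CL cranial it was 59.6, 131, and 117 CPM in order of time, and in CL caudal 73.5, 43.1, and 77.4 CPM. In BM it was 81.9 CPM before treatment, 128 CPM at 1 week, and 164 CPM at 3 weeks. The sarcoma held the highest values except in its 2-day biopsy, and the ranges before treatment, early, and late overlapped.

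SP7 was close to absent everywhere except in the BM mass at 3 weeks. It had 8 counts before treatment and 6 counts at 1 week in BM (0.222 and 0.213 CPM), and 576 counts (24.2 CPM) at 3 weeks. The other 12 libraries held at most 8 counts, in RV at 2 days (0.449 CPM), and 4 of them held none, which at these depths allows up to 0.180 to 0.262 CPM. The 3-week level in BM was 109-fold that before treatment, with an exact 95% interval from 54.9 to 253 that covers counting error only. SP7 therefore failed the filter on low counts, and 8 of the 9 members entered the tests.

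**Figure D1:**
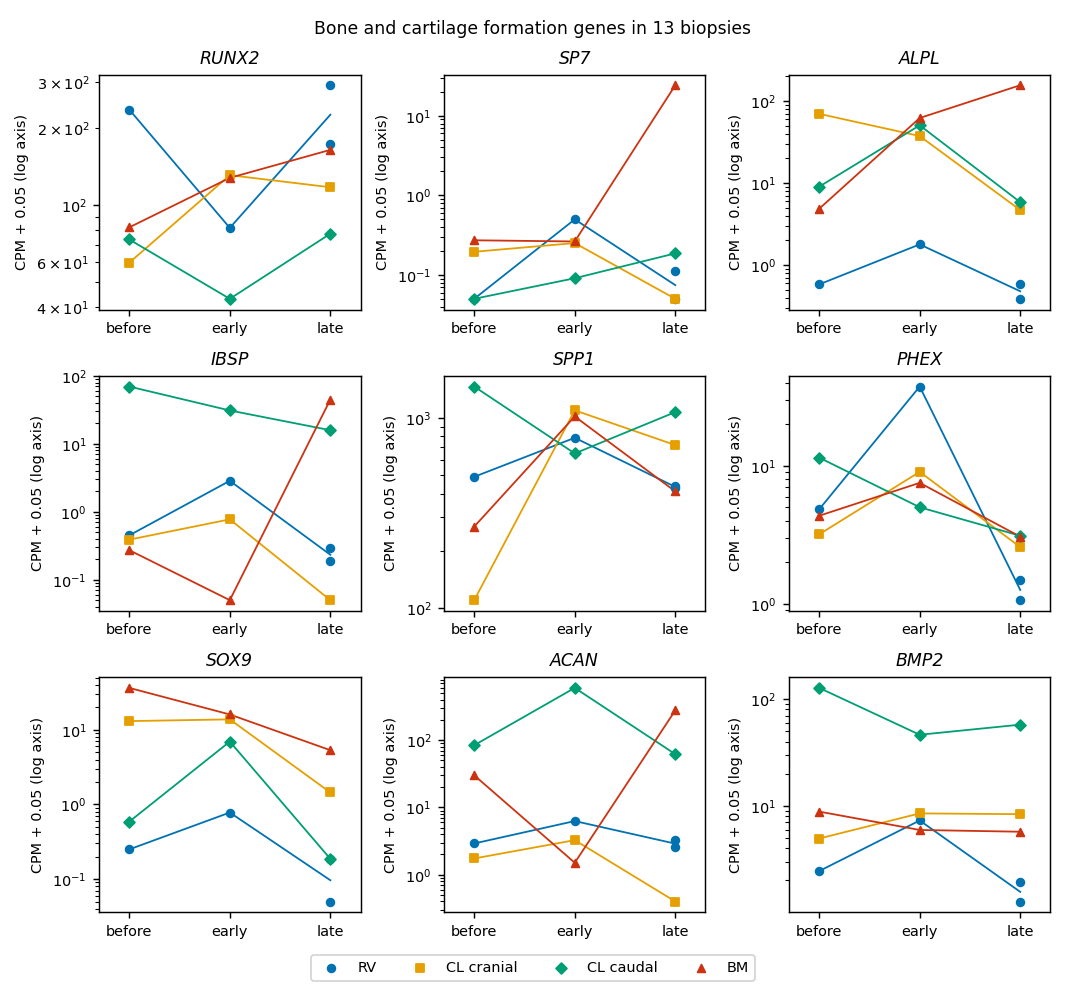
Level of each of the 9 genes (CPM + 0.05, log axis) before treatment, early, and late, with 1 point per library, 1 color and symbol per tumor, and a line through each tumor (through the geometric mean of both late RV sites). SP7, IBSP, ALPL, and ACAN ended high in BM at 3 weeks (24.2, 44.9, 155, and 278 CPM). SOX9 ended lower than it began in each of the 4 tumors, in RV from 3 counts to 2 and 0.

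The mineralizing phosphatase ALPL separated the sarcoma from the mammary tumors. In RV it stayed at 0.533, 1.74, 0.339, and 0.544 CPM, in the order before, 2 days, injection site, and adjacent site. In CL cranial it was 69.6 CPM before treatment, 37.3 CPM at 1 week, and 4.63 CPM at 1 month, and in CL caudal it was 8.97, 50.4, and 5.80 CPM. In BM it was 4.81 CPM before treatment, 61.8 CPM at 1 week, and 155 CPM at 3 weeks, a 32.3-fold difference between the first and last biopsy (counting interval 27.7 to 37.8). All 4 RV libraries lay below all 9 mammary libraries, a separation that 1.59% of the 20118 genes tested also showed. The 3 mammary masses had different courses: ALPL was 15.0-fold lower at 1 month than before treatment in CL cranial, peaked at 1 week in CL caudal, and was higher at each later biopsy in BM.

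PHEX, the other gene of mineral handling, had its lowest levels in the late biopsies. It was 4.80, 37.5, 1.02, and 1.45 CPM in RV, and 3.15, 9.01, and 2.53 CPM in CL cranial. It was 11.4, 4.97, and 3.07 CPM in CL caudal, and 4.31, 7.49, and 3.02 CPM in BM. The 5 late libraries (1.02 to 3.07 CPM) all lay below the 4 taken before treatment (3.15 to 11.4 CPM), which was so for 0.358% of genes tested, while the test over all genes did not call it (log2 fold change −1.30, SE 0.71, edgeR adjusted p = 0.974). The highest value, in RV at 2 days, was 7.82-fold the level before treatment and came from the library with the epidermis markers, whose part in it was not tested.

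IBSP, which marks cells laying down bone matrix, passed 10 CPM in 4 libraries. In CL caudal it was 69.7 CPM before treatment, 31.0 CPM at 1 week, and 15.8 CPM at 1 month. In BM it was 0.222 CPM (8 counts) before treatment, listed at 0 at 1 week, and 44.9 CPM (1068 counts) at 3 weeks. CL cranial held 0.339, 0.724, and 0 CPM, and RV held 0.400, 2.81, 0.136, and 0.242 CPM. The 3-week BM level was 202-fold that before treatment (counting interval 102 to 469) and at least 421-fold that at 1 week, set against a floor of 3 counts in that library. The caudal tumor of CL thus held IBSP from the start and 4.40-fold less of it at 1 month, while the BM mass held next to none until the last biopsy.

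IBSP and SPP1 lie near each other on chromosome 32 (RefSeq, UU_Cfam_GSD_1.0, IBSP at 28790260 to 28803929 and SPP1 at 28630350 to 28638599). Their changes from before treatment were opposite in BM at 1 week (log2 −1.707 and 1.925) and CL cranial at 1 month (−2.155 and 2.71). IBSP had no count in either of those libraries. Elsewhere the changes had the same sign but often differed in size, as in BM at 3 weeks (7.13 and 0.61). SPP1 was 490, 786, 430, and 437 CPM in RV, in the order before, 2 days, injection site, and adjacent site. It was 110, 1096, and 720 CPM in CL cranial, and 1462, 650, and 1073 CPM in CL caudal. In BM it was 268 CPM before treatment, 1018 CPM at 1 week, and 410 CPM at 3 weeks. In 3 of the 4 tumors SPP1 peaked in the early biopsy, by 9.97-fold in CL cranial and 3.80-fold in BM, and in CL caudal it was lowest there. In BM it was 1.53-fold above its start at 3 weeks, when SP7 and IBSP were highest.

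The early peaks of SPP1 fell in the libraries with the highest macrophage signal of their tumors. The 16 macrophage markers (complement C1q chains, CD163, CD68, CSF1R, and others), all found in every library, summed to 741 CPM before treatment and 4066 CPM at 1 week in CL cranial, and to 425 and 4120 CPM in BM. They summed to 1282 CPM before treatment, 2453 CPM at 2 days, 1171 CPM at the late injection site, and 2296 CPM at the late adjacent site in RV. At that adjacent site GPNMB alone made up 1770 CPM of the sum (671 CPM before treatment), and SPP1 was below its start (437 CPM). Over both late RV sites the median log2 change of the 16 markers was −0.01. In BM at 3 weeks the sum was still 2265 CPM with SPP1 at 410 CPM. In CL caudal, however, the sum was highest at 1 week (1600 CPM against 972 and 1185 CPM), when SPP1 was lowest. Before treatment the markers summed to between 425 and 1282 CPM over the tumors while SPP1 ranged from 110 to 1462 CPM, and the caudal tumor of CL was 13.3-fold above the cranial one. The part of macrophages in the SPP1 levels was not tested.

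**Figure D2:**
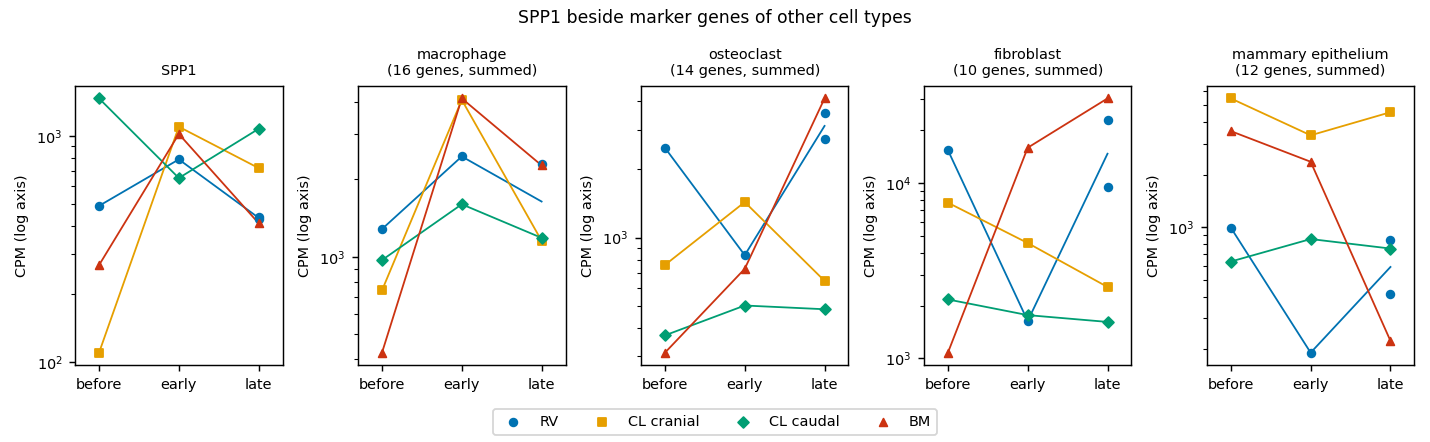
SPP1 (CPM) and the summed CPM of marker genes of macrophages, osteoclasts, fibroblasts, and mammary epithelium, on log axes, before treatment, early, and late, with 1 point per library and a line per tumor. SPP1 and the macrophage sum both peaked early in RV, CL cranial, and BM, whereas the osteoclast sum reached 4117 CPM and the epithelial sum was 223 CPM in BM at 3 weeks.

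The cartilage factor SOX9 was lower late than before treatment in every tumor, though in RV these counts were at or under the floor of 3. It was 36.5, 16.1, and 5.29 CPM in BM, and 13.1, 13.8, and 1.40 CPM in CL cranial, in order of time. It was 0.538, 6.93, and 0.136 CPM in CL caudal, and in RV it was 0.1999, 0.730, 0.136, and 0 CPM, which is 3, 13, 2, and 0 counts. Against the level before treatment, the late level was 6.90-fold lower in BM and 9.35-fold lower in CL cranial. SOX9 and PHEX were the members that were lower late in all 4 tumors, as 8.04% of all genes were. In CL caudal it was 12.9-fold higher at 1 week (9 against 170 counts) and lower than at the start at 1 month (2 counts).

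ACAN, the aggrecan core protein gene, changed in the direction of SOX9 in most biopsies but not in BM at 3 weeks. It was 84.2, 600, and 62.0 CPM in CL caudal, where the 1-week value was 7.13-fold that before treatment. In BM it was 30.03 CPM before treatment, 1.46 CPM at 1 week, and 278 CPM at 3 weeks. CL cranial stayed at 1.69, 3.22, and 0.350 CPM, and RV at 2.87, 6.23, 3.19, and 2.54 CPM. The BM mass thus held 20.6-fold less ACAN at 1 week than before treatment and 9.27-fold more at 3 weeks, when its SOX9 level was lowest.

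BMP2, the ligand, was a feature of the caudal tumor of CL. It was 127, 46.2, and 57.5 CPM there, in order of time, and 4.89, 8.44, and 8.30 CPM in the cranial tumor of the same dog. In RV it was 2.40, 7.24, 1.22, and 1.87 CPM, and in BM 8.78, 5.89, and 5.67 CPM. The 3 caudal libraries all lay above the other 10, a separation shown by 2.53% of genes tested. In BM, where SP7 and IBSP ended high, BMP2 was about the same at 3 weeks (5.67 CPM) as at 1 week (5.89 CPM).

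Within each tumor, a change was counted where it exceeded 2-fold on the log2 CPM scale (prior count 2) and also with counts under 3 raised to 3. In BM at 3 weeks, 5 of the 9 members were higher by this rule, RUNX2, SP7, ALPL, IBSP, and ACAN, against 21.6% of all genes, and SOX9 was lower, against 27.8%. RUNX2 only just passed, at 2.004-fold. At 1 week in BM, ALPL and SPP1 were higher (19.0% of all genes) and IBSP, SOX9, and ACAN lower (18.2%), so that of the 5 genes high at 3 weeks only ALPL was also higher past 2-fold at 1 week.

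The other mammary tumors did not share that course. In CL cranial, RUNX2, SPP1, and PHEX were higher at 1 week (15.9% of all genes) and none was lower (7.2%), and at 1 month SPP1 was higher (20.2%) and ALPL, SOX9, and ACAN lower (25.9%). In CL caudal, ALPL, SOX9, and ACAN were higher at 1 week (27.7%) and IBSP, SPP1, PHEX, and BMP2 lower (18.3%). At 1 month in CL caudal no member was higher (6.78%) and 4 were lower, IBSP, PHEX, SOX9, and BMP2, against 5.65% of all genes. In RV at 2 days, 7 members were higher (38.8%), RUNX2 was lower (25.7%), and SPP1 passed in neither direction, and at 2 weeks none was higher (5.03%) and PHEX was lower (5.97%). The 2-day shares over all genes were the largest of the 8 changes in the upward direction.

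**Figure D3:**
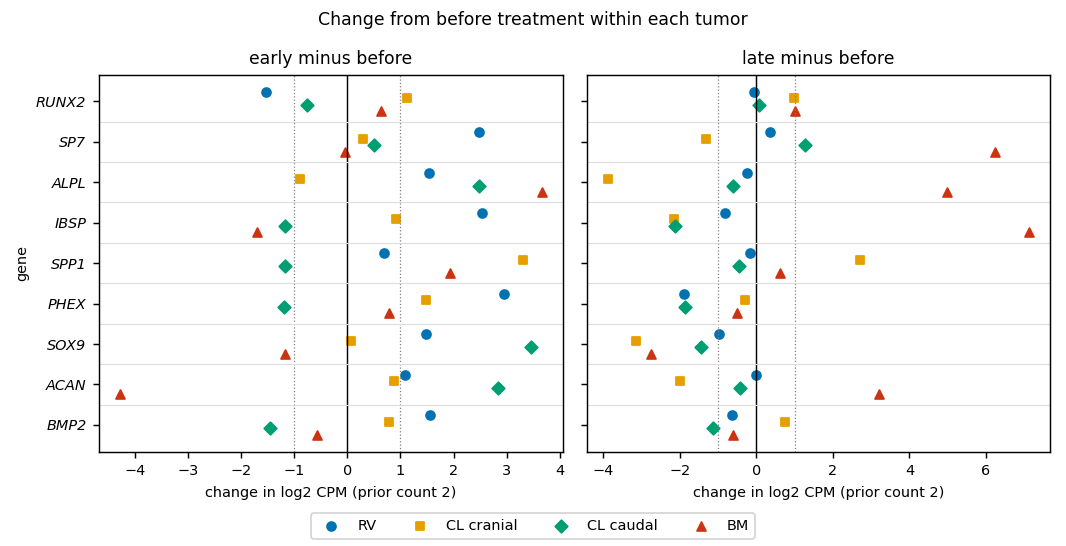
Change in log2 CPM (prior count 2) from before treatment to the early and the late biopsy for each gene, with 1 symbol per tumor, a solid line at no change, and dotted lines at a 2-fold change (RV late is the mean of both sites). The late BM biopsy stood out for IBSP (7.13), SP7 (6.24), ALPL (4.99), and ACAN (3.21). The late changes of SOX9 and PHEX were below 0 in all 4 tumors, for SOX9 in RV on at most 3 counts per library.

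Whether any member changed with time in the same way over the tumors was tested in edgeR with tumor as a block. Early against before treatment, none of the 8 members tested was called at an adjusted p of 0.05, as 0.00497% of genes were (1 gene). The log2 fold changes ran from −0.11 for RUNX2 (SE 0.44) to 1.499 for ACAN (SE 1.19), and the median over all genes was 0.25. Late against before treatment, no gene was called (0.0%, with 805 genes at an unadjusted p under 0.05 and 7 calls by DESeq2). SOX9 had the smallest p-value of the members, with a log2 fold change of −2.55 (SE 0.84, edgeR adjusted p = 0.974).

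In edgeR more genes were called between tumors than between time points. The biopsies of 1 tumor served as its replicates in the tumor contrasts, so these counts cannot be compared as sizes of difference. In BM against the mean of the other tumors over all times, 2.41% of genes were called and SOX9 was the member among them, higher by 3.89 (log2, SE 0.70, adjusted p = 0.0228). The value stayed positive but the call was lost without BM before treatment (3.26, adjusted p = 0.134) or BM at 3 weeks (3.602, adjusted p = 0.218). It was also lost without any of 4 CL libraries, namely both 1-month libraries, caudal before treatment, and cranial at 1 week (3.57 to 3.89, adjusted p from 0.0513 to 0.0611), and without RV (2.64, adjusted p = 0.129) or CL caudal (3.65, adjusted p = 0.0591) as a whole. ALPL (3.48, SE 1.06, adjusted p = 0.0956) and ACAN (3.47, SE 1.23, adjusted p = 0.136) were not called, and DESeq2 gave 0.00197 and 0.00534 for them. ALPL passed in edgeR without CL caudal at 1 week (adjusted p = 0.0488), CL cranial before treatment (0.0473), or CL cranial as a whole (0.0454), and ACAN without BM at 1 week (0.0224). Both values rested on the 3-week library of BM, without which ALPL was 0.87 (adjusted p = 0.788) and ACAN 0.40 (adjusted p = 0.947). Without RV as a whole they were 1.60 (adjusted p = 0.544) and 2.41 (0.436), and without CL cranial ACAN was 1.86 (0.429). SP7, fitted without the filter, was 5.44 higher (SE 1.53, adjusted p = 0.0867).

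In RV against the mean of the mammary tumors, 7.21% of genes were called, and 3 members were lower: ALPL by −5.66 (log2, SE 1.17, adjusted p = 0.0171), SOX9 by −4.50 (SE 0.92, adjusted p = 0.0167), and BMP2 by −2.35 (SE 0.53, adjusted p = 0.0235). RUNX2 was the member with the highest value there, at 0.95 (SE 0.36, adjusted p = 0.144), and without the 2-day library it was called (1.28, adjusted p = 0.0227). Each of the 3 calls was lost without the RV library taken before treatment (adjusted p = 0.0727 for ALPL, 0.0809 for SOX9, and 0.0982 for BMP2) and without the adjacent-site library (0.0663, 0.0554, and 0.0966). ALPL and BMP2 also lost theirs without the injection-site library (0.0704 and 0.0964), and BMP2 without the 1-month library of CL caudal (0.0521) or without CL caudal as a whole (−1.31, adjusted p = 0.242). SOX9 lost its call without BM (0.0554) or CL cranial (0.0589) as a whole. With both late RV sites, which come from 1 mass, summed into 1 library, ALPL (0.0663) and BMP2 (0.0919) were not called and SOX9 was (0.0385). ACAN (−3.20, SE 1.13, adjusted p = 0.117) passed without the 1-week library of BM (0.0232). The comparison rests on 1 sarcoma.

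Between the masses of dog CL, which share a host but not a diagnosis, 0.134% of genes were called and no member was among them. The caudal mass held more BMP2 (3.36, SE 0.68, adjusted p = 0.0846), ACAN (6.76, SE 1.65, adjusted p = 0.124), and IBSP (7.01, SE 2.42, adjusted p = 0.232), and less SOX9 (−2.51, SE 0.98, adjusted p = 0.285). Without the 2-day library of RV, BMP2 (adjusted p = 0.0118) and ACAN (0.0495) passed in edgeR, and without the 1-week library of BM, ACAN passed (0.0332). Without BM as a whole, ACAN (0.00824) and IBSP (0.024) passed in edgeR, and without the filter BMP2 passed (0.0304). DESeq2 called all 4, with adjusted p from 4.56e-06 for ACAN to 0.0494 for SOX9.

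**Figure D4:**
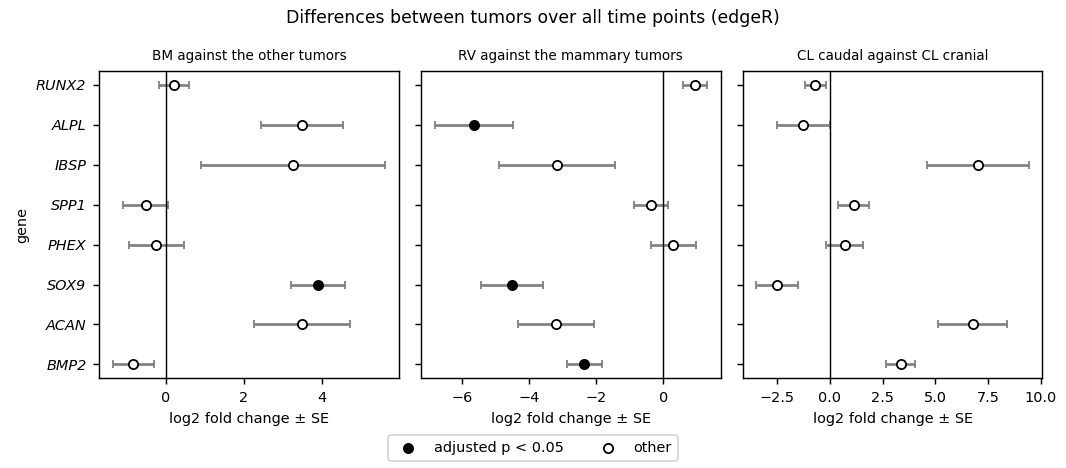
Log2 fold change with its standard error for the 8 members tested in edgeR, in BM against the mean of the other tumors, RV against the mean of the mammary tumors, and CL caudal against CL cranial, with filled points where the adjusted p over all genes was under 0.05. SOX9 is filled in the BM panel, ALPL, SOX9, and BMP2 are filled below 0 in the RV panel, and no point is filled in the CL panel.

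The change of BM from before treatment was also set against the change of the other tumors. At 1 week no gene was called (0.0%, with 1268 at an unadjusted p under 0.05 and 167 calls by DESeq2), and ACAN (−6.06, SE 1.23, edgeR adjusted p = 0.710) and IBSP (−6.21, SE 2.46, edgeR adjusted p = 0.710) had the smallest p-values of the members. The median over all genes was −0.36. At 3 weeks no gene was called (0.0%, with 1366 at an unadjusted p under 0.05 and 429 calls by DESeq2), and 3 members were at an unadjusted p under 0.05, all higher: IBSP (9.69, SE 1.96), ALPL (6.80, SE 1.66), and ACAN (3.83, SE 1.13). Their edgeR adjusted p-values were 0.428, 0.494, and 0.618, and those of DESeq2 were 1.64e-05, 0.000827, and 0.0385. Without the 2-day library of RV, edgeR called 348 genes at 3 weeks and IBSP was among them (9.42, adjusted p = 0.0209). SP7, fitted without the filter, had a value of 6.52 (SE 2.78, edgeR adjusted p = 1.0). The BM terms rest on 1 library each, which is assumed to vary like those of the other tumors.

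Other genes listed for bone formation also differed in BM at 3 weeks. Of 34 further osteoblast and mineralization genes, 31 were tested, and 18 were higher and 4 lower than before treatment past 2-fold in BM, where 21.6% of all genes were higher and 27.8% lower, with a median change of 1.69 against −0.07 over all genes. COL1A1 and COL1A2, the chains of type I collagen, the main protein of bone and also of scar and fibrous stroma, were 186, 7310, and 40140 CPM and 222, 6554, and 34620 CPM in order of time. OMD (osteomodulin), a proteoglycan of bone matrix, was 7.45, 42.9, and 91.3 CPM. TNFSF11 (RANKL), the cytokine that drives osteoclast formation, was 0.50, 0.923, and 46.0 CPM. The collagens were thus already higher at 1 week, when SP7 and IBSP were not, and RANKL was high together with these at 3 weeks. At 1 week 13 of the 31 genes were higher and 6 lower past 2-fold, against 19.0% and 18.2% of all genes. A high RANKL level was not particular to that biopsy. It was 45.8 CPM in CL cranial before treatment, with IBSP at 0.339 and SP7 at 0.145 CPM there, and 11.3 to 16.4 CPM in RV.

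Not every late bone gene was present. BGLAP (osteocalcin), a protein of mature osteoblasts, was 3.08, 3.12, and 2.52 CPM in BM, and 86.0, 109, and 70.5 CPM in CL caudal, where it was called against CL cranial (3.93, SE 0.51, adjusted p = 0.0169). DMP1, an osteocyte matrix protein, was at most 0.978 CPM in the 13 libraries, and SOST (sclerostin), made by osteocytes, had no count in any. DLX5, a homeobox factor upstream of SP7, was 15.7 CPM before treatment, 0.249 CPM at 1 week, and 21.7 CPM at 3 weeks in BM, and 8.44, 36.9, and 2.59 CPM in CL caudal. In the test of BM against the other tumors, 3 of the 31 genes were called, all higher, against 2.41% of all genes called. They were COL5A1 (a fibrillar collagen), ANKH (a pyrophosphate exporter), and FGF23 (a phosphate hormone). In RV against the mammary tumors 1 of the 31 was called higher, PDPN, and 5 lower, against 7.21% of all genes called.

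The cartilage list did not move one way in BM. Of 25 genes tested, 8 were higher and 9 lower at 3 weeks past 2-fold, near the shares over all genes (21.6% and 27.8%), with a median of −0.39. COL2A1, the collagen of hyaline cartilage, was 4.17, 6.67, and 0.462 CPM in BM, and COL9A1, which binds to its fibrils, was 185, 56.1, and 3.53 CPM. COL10A1, the mark of hypertrophic cartilage, had at most 0.0678 CPM and IHH, its regulator, had no count in any library. Other genes of the list were lowest at 1 week and highest at 3 weeks in BM, as ACAN was. COL11A1, a fibrillar collagen of cartilage, was 537, 113, and 984 CPM, HAPLN1, the link protein that holds aggrecan to hyaluronan, 35.5, 2.91, and 45.7 CPM, and MATN3 (matrilin), a matrix adaptor, 6.31, 1.07, and 22.1 CPM. COL11A2, another cartilage collagen gene, was 63.9, 2.41, and 2.73 CPM. Against the level before treatment, the 3-week changes of COL11A1 (log2 0.87) and HAPLN1 (0.36) were under 2-fold. ACAN at 3 weeks thus came with low levels of COL2A1, COL9A1, and COL11A2, while COL11A1 was the collagen gene named here with a high level.

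In CL caudal, where ACAN was above its CL cranial levels throughout, the rest of the cartilage list was mixed. At an unadjusted edgeR p under 0.05, 8 of 25 genes were higher and 5 lower than in CL cranial. Of all 20118 genes, 2888 were at that p. The 2 cartilage genes called were both higher in CL caudal, against 0.134% of all genes called. CNMD (chondromodulin), a cartilage protein that blocks vessel growth, was 120, 78.4, and 64.5 CPM there and between 0.525 and 1.49 CPM in CL cranial (6.96 higher, SE 0.72, adjusted p = 0.00444). HAPLN1 was 475, 348, and 274 CPM against 2.27 to 4.16 CPM (6.78 higher, SE 0.84, adjusted p = 0.0159). COL9A2, a type IX collagen chain, was 0.359, 9.41, and 0.0682 CPM in CL caudal and 90.4, 29.0, and 2.19 CPM in CL cranial, and MATN3 was 1.08, 0.978, and 2.66 CPM against 13.8, 4.95, and 16.9 CPM. At 1 week in CL caudal, 12 of the 25 cartilage genes were higher (27.7% of all genes) and 5 lower (18.3%) past 2-fold, and 7 of 8 myoepithelial markers were higher too, their sum going from 516 to 3224 CPM. Whether the myoepithelial signal had a part in the change was not tested.

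Among 29 tested genes of the BMP pathway, 6 were higher and 11 lower in BM at 3 weeks past 2-fold, against 21.6% and 27.8% of all genes, with a median of −0.72. ID1 and ID3, direct targets of BMP receptor signaling, were 20.2, 19.2, and 282 CPM and 21.1, 76.5, and 201 CPM in order of time. Both were called in BM against the other tumors, ID1 by 4.07 (SE 0.58, adjusted p = 0.0107) and ID3 by 1.96 (SE 0.43, adjusted p = 0.0416), as was CHRD (chordin), a secreted BMP inhibitor (2.78, SE 0.54, adjusted p = 0.0300). Of all genes, 2.41% were called in that comparison. BMP4, a ligand related to BMP2, was 2.64, 11.96, and 10.7 CPM, and SMAD9, a BMP receptor substrate, 5.42, 10.6, and 35.1 CPM. ID4, of the same family as ID1 and ID3, went the other way, at 205, 47.5, and 4.37 CPM. ID1 and ID3 were therefore high in BM at 3 weeks while ID4 and BMP2 were not. In RV, GDF6, a BMP-family ligand, was lower than in the mammary tumors (−4.39, SE 0.72, adjusted p = 0.00560). There 5 pathway genes in all were called lower and 1 higher, the inhibitor SOSTDC1, against 7.21% of all genes called.

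Osteoclast genes were also high in the 3-week BM library. Of 13 tested, 9 were higher past 2-fold and none lower, against 21.6% and 27.8% of all genes, with a median change of 2.59. ACP5, the tartrate-resistant acid phosphatase of osteoclasts, was 4.39, 21.6, and 778 CPM in order of time, and ATP6V0D2, a proton pump subunit needed for osteoclast fusion, 0.222, 0.568, and 65.8 CPM. OCSTAMP, another fusion gene, was 0.0556, 0, and 45.2 CPM, and at most 1.69 CPM in every library of the other tumors. CTSK (cathepsin K), which fibroblasts also make, made up most of the summed osteoclast signal, at 2597 CPM in BM at 3 weeks and 2231 to 3262 CPM in RV outside the 2-day library. The BM late change was largest in ACP5 (9.22, SE 1.85, edgeR adjusted p = 0.428) and ATP6V0D2 (7.69, SE 1.53, adjusted p = 0.428) among the osteoclast genes named by p-value, and neither was called. In BM against the other tumors over all times NFATC1, the master factor of osteoclasts, was called (1.99, SE 0.42, adjusted p = 0.0375), as 2.41% of all genes were.

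The make-up of the BM mass differed between the biopsies in other markers as well. All 12 mammary epithelial markers were lower at 3 weeks than before treatment past 2-fold (27.8% of all genes, median −4.18), their sum going from 3553 CPM to 2371 CPM at 1 week and 223 CPM at 3 weeks, and 7 of 8 myoepithelial markers were lower (sum 4864 to 314 CPM). All 10 fibroblast markers were higher (21.6% of all genes, median 4.26), their sum going from 1077 to 15890 and 30360 CPM, and 14 of 16 macrophage markers were higher. No marker of these 4 lists was at 0 in a BM library. The SP7, IBSP, ALPL, and ACAN levels at 3 weeks thus came with less epithelial and more fibroblast, osteoclast, and macrophage signal, and the part of each was not tested. In CL caudal the epithelial markers summed to 635 to 854 CPM, in CL cranial to 3362 to 5472 CPM, and in RV to 191 to 992 CPM. The RV sums did not follow most of the 12 markers. Their mean log2 CPM was 1.53 to 1.85 in RV outside the 2-day library and 3.49 in it, against 4.49 to 4.90 in CL caudal. At 2 days in RV, 10 markers were higher (38.8% of all genes) and 1 lower (25.7%) past 2-fold, while the sum fell from 992 to 191 CPM.

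The genes whose pattern over the 13 libraries was most like that of a member were mostly from outside the lists. By Pearson correlation of log2 CPM, ACAN was nearest to DLX5 (r = 0.915) and to IBSP (r = 0.887), IBSP to ACAN, SOX9 to CEP170B (r = 0.979), and BMP2 to SGK3 (r = 0.970). ALPL was nearest to SCARA3 (r = 0.940), RUNX2 to MRPS18B (r = 0.931), PHEX to FABP7 (r = 0.932), and SPP1 to IFI6 (r = 0.875), an interferon-induced gene. Among the members, ALPL and SOX9 had r = 0.760, IBSP and BMP2 0.713, and SPP1 and IBSP 0.317, while RUNX2 had negative values with BMP2 (−0.745) and ALPL (−0.4997). The 13 points share tumors and dogs, so these values describe the libraries and carry no test.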

How the data were processed

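RNA was extracted from tumor biopsies and sequenced as strand-specific libraries. The authors used Strand NGS to align reads to CanFam4.0, and the deposited table holds raw read counts by gene symbol, not normalized. The counting rule, its use of strand, and the annotation release are not given in the sources used here, so overlapping and antisense genes may share reads. Of 43427 symbols, 98% matched the RefSeq table of UU_Cfam_GSD_1.0. Each pair of libraries differed beyond sampling noise (78 pairs, smallest chi-square 44.5 per degree of freedom).

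The 9 members and all lists were chosen with earlier results of these data known. Groups and tumors came from the labels. Genes were filtered with filterByExpr (minimum count 10, 20118 kept), TMM normalized, and fitted in edgeR 4.0.16 (R 4.3.3) by glmQLFit with robust estimation and glmQLFTest, with tumor and time as factors (7 residual degrees of freedom, common coefficient of variation 0.672) or with BM terms added (5 degrees of freedom). P-values were adjusted by Benjamini-Hochberg over all genes tested, threshold 0.05. SE is the log2 fold change divided by the root of F. Pairing comes from the tumor: deviations of libraries of 1 tumor from their time-group means had a median r of 0.326 (14 pairs, −0.097 to 0.773), against −0.131 for 42 pairs of different tumors. Biopsies of 1 tumor are not separate animals, so p-values measure the spread between these libraries.

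CPM and log2 CPM (prior count 2) used TMM factors. Count intervals are exact at 95%, the floor is 3 counts, and both cover counting error only. List genes were named by a rule: per list and comparison up to 4 genes past the threshold with the smallest p-values, or the 2 smallest where none passed. Named after their values were seen were COL1A1, COL1A2, OMD, TNFSF11, BGLAP, DMP1, SOST, and DLX5 where described by level, and COL2A1, COL9A1, COL9A2, COL10A1, COL11A1 and HAPLN1 in BM, MATN3, IHH, ID4 in BM, BMP4, SMAD9, CTSK, and OCSTAMP. Likeness is the 3 genes with the highest Pearson r over 13 libraries. Alternatives were DESeq2 size factors, DESeq2 1.42.0, no filter, no tumor block, dog as block, 2 time points only, late RV sites summed, each library or tumor left out, prior count 0.5, and 1 late RV site. The fits were tested on simulated counts. Python 3.11.15, numpy 2.4.6, pandas 2.3.3, scipy 1.17.1, and matplotlib 3.10.9 were also used.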

Additional observations from a re-analysis of the deposited data

Results flagged for a closer look

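In 3 of 27 groups of a member's log2 CPM values by time, 1 library stood far from the rest by Dixon's ratio, where chance gives 1.35. SP7 in BM at 3 weeks was 4.60 against −3.35 to −2.09 in the other late libraries. ALPL in RV at 2 days was 0.88 against 5.22 to 5.95 in the other early libraries. IBSP in CL caudal before treatment was 6.13 against −1.64 to −1.01 in the other tumors before treatment. In 18 comparisons of the direction of change in RV with that in the mammary tumors, none was opposite throughout.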

How the results depend on the processing

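The 18 member results at an unadjusted p under 0.05 were refitted, and none changed sign. Alternatives were not compared for the other member tests. Numbers of genes called moved widely. DESeq2's Wald test called 956 early, 7 late, 3131 for BM against the other tumors, 3743 for RV against the mammary tumors, 1420 for CL caudal against CL cranial, and 167 and 429 for the BM early and late changes. Without the filter the counts were 17 early, 105 between the CL masses, and 1 for the BM late change. With the late RV sites summed they were 0 early, 125 for BM, 459 for RV, and 10 for the CL masses. The early count was 0 with DESeq2 size factors, with the dog as block, without the tumor block, and with only 2 time points. The fit without the block covers only the early and late comparisons, where no member was called with the block or without it. It therefore says nothing on the member calls between tumors, which need the tumor terms.

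Leaving out a library or tumor gave 0 to 12 genes early (12 without CL caudal at 1 week), 0 late throughout, 7 to 1944 for BM (7 without BM at 3 weeks, 1944 without CL caudal at 1 week), and 365 to 4435 for RV (365 without RV before treatment). It gave 1 to 599 for the CL masses (1 without CL cranial before treatment), 0 for the BM early change, and 0 to 348 for the BM late change, while 4435, 599, and 348 came without RV at 2 days. The BM contrasts could not be fitted without BM, nor the BM changes without its library before treatment or the one at issue. Single-gene calls of members were lost in 22 refits, gained in 24, and stayed on their side of the threshold in 304. The number of members past 2-fold higher within a tumor stayed within 1.5 times throughout, for example 4 in place of 5 in BM late with DESeq2 size factors. The numbers of members past 2-fold lower were not compared under alternatives. The cause of these shifts was not tested. Depth limits SP7 and IBSP, which had under 10 counts in 12 and 7 libraries. It also limits SOX9, which had at most 3 counts in RV outside the 2-day library and 2 in CL caudal at 1 month.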
